A study of Mus musculus with 9 samples.

Results

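The transforming growth factor-beta (TGF-beta) ligands and the proteins that keep them latent were examined in skeletal muscle and heart of mice. This set was chosen by gene name and holds 9 genes: the ligands Tgfb1, Tgfb2 and Tgfb3, the co-receptor Tgfbr3, the latent TGF-beta binding proteins Ltbp1, Ltbp2, Ltbp3 and Ltbp4, and the TGF-beta-induced matrix protein Tgfbi. The table of quadriceps after transverse aortic constriction (TAC) against sham listed 587 genes and held 6 of the 9, so Tgfb1, Ltbp2 and Ltbp3 were not analysed in that comparison. The deposited comparison of both sham tissues held all 9, as 18 of 35745 transcripts. RNA of C57Bl6 mice, which the study's methods give as male C57Bl/6JCrl, had been sequenced from quadriceps after TAC, quadriceps after sham surgery and heart after sham surgery, with 3 libraries in each of the 3 groups. The mice were operated on at 8 weeks of age and the tissues were taken 12 weeks later. TAC narrows the aortic arch, which loads the left ventricle with excess pressure. The mice were wild type and received no other agent, the RNA came from whole tissue, and the study examined muscle-derived secreted proteins in cardiac wasting. Nothing in the labels says whether the sham heart and sham quadriceps libraries came from the same animals.

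TGF-beta ligands are made as precursors whose propeptide stays wrapped around the mature growth factor after cleavage and holds it inactive. Latent TGF-beta binding proteins other than Ltbp2 attach covalently to this propeptide and tether the latent complex to fibrillin microfibrils and fibronectin in the extracellular matrix. Integrins, thrombospondin and proteases then release the active ligand, which signals through type I and type II receptors and Smad proteins. In muscle the pathway is known for restraining myoblast differentiation and for driving fibrosis, and in the heart for activating fibroblasts.

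Positions of the 9 genes are given in the mouse build GRCm38 (mm10). Tgfb1 lies at chr7:25687002-25705077 on the plus strand and Ltbp4 at chr7:27305136-27337692 on the minus strand, and both overlap no other annotated gene. Tgfb2 lies at chr1:186622792-186705989, Tgfb3 at chr12:86056745-86079041 and Ltbp2 at chr12:84783212-84876532, all on the minus strand. Tgfbi lies at chr13:56609523-56639562, Ltbp1 at chr17:75005568-75392512 and Ltbp3 at chr19:5740904-5758532, on the plus strand. Tgfbr3 lies at chr5:107106570-107289629 on the minus strand. Tgfb3 overlaps Ttll5 on the opposite strand. The strand setting of the counting is not given in the sources used here, so reads of overlapping genes could not be told apart.

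Promoter windows of the 250 bases before a start site were available for 7 of the 9 genes in the RefSeq table of GRCm38.p6, which matched neither Tgfb3 nor Tgfbr3. They are shown for some of the genes that differed between the tissues. These are Tgfb1 and Ltbp4, which were far lower in quadriceps, Tgfb2, which was higher, and both start regions of Ltbp1. The count difference between the long and the shorter Ltbp1 transcript was a smaller share of the long one's counts in quadriceps, on few reads. Capitals mark matches on either strand to the Smad-binding element CAGAC, the E-box CAGCTG, the AP-1 motif TGANTCA or the GC box GGGCGG. The windows are chr7:25686752-25687001 on the plus strand for Tgfb1, chr7:27333664-27333913 on the minus strand for Ltbp4, chr1:186705990-186706239 on the minus strand for Tgfb2, and chr17:75005279-75005528 and chr17:75178531-75178780 on the plus strand for the upstream and downstream starts of Ltbp1.
Tgfb1: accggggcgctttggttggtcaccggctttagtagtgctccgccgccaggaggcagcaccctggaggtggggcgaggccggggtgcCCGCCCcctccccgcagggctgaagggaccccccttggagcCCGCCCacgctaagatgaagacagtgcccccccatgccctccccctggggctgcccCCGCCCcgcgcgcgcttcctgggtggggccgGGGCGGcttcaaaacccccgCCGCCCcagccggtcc
Ltbp4: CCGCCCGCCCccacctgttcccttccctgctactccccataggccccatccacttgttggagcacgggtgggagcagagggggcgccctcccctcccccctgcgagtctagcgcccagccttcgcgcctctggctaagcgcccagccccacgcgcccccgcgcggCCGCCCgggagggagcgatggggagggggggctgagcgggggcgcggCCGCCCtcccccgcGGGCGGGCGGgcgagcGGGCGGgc
Tgfb2: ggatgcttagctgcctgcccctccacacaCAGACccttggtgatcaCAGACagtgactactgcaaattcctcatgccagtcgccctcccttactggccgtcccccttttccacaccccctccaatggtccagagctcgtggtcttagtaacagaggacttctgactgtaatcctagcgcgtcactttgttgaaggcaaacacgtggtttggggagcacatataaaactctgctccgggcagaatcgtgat
Ltbp1 upstream start: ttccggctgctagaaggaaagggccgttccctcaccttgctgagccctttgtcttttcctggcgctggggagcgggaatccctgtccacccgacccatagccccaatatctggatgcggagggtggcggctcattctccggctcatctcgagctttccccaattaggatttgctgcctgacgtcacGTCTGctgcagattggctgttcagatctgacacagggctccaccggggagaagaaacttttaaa
Ltbp1 downstream start: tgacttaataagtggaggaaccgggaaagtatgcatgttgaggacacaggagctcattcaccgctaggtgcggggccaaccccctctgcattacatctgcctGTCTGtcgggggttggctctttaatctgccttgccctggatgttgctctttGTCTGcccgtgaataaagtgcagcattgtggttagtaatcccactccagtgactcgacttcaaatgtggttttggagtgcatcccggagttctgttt

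The Tgfb1 window held 5 GC boxes and was 75.2% G and C. The Ltbp4 window held 7 GC boxes, some of which overlap each other, and was 79.2% G and C. It lies directly before the annotated start of the transcript NM_001113549, whereas the Ltbp4 levels given below are those of NM_001310678. Of the other 2 Ltbp4 windows, one largely coincides with it and holds 5 GC boxes, and the one at the upstream start, chr7:27337613-27337862, held 3 and was 64.4% G and C. No GC box stood in the Tgfb2 window, which was 53.6% G and C and held 2 Smad-binding elements. The upstream Ltbp1 window held 1 Smad-binding element and the downstream window 2. Neither Ltbp1 window held a GC box, and they were 56.8 and 50.8% G and C. Among windows not shown, that of Ltbp3 held 1 Smad-binding element and no GC box and was 47.2% G and C. That of Ltbp2 held 2 Smad-binding elements and 2 GC boxes and was 61.6% G and C. That of Tgfbi held 2 Smad-binding elements and 1 GC box and was 62.4% G and C. Of all 32851 promoter windows of this length, 32.7% held a GC box, 42.2% a Smad-binding element, 13.0% the E-box and 6.75% the AP-1 motif. The E-box and the AP-1 motif were in none of the 10 windows of these genes. A match is a description of the letters and not evidence of binding.

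Library totals, summed over transcripts, ran from 23383452 to 38382751 counts in the 6 sham libraries and were 48614494 and 48999600 in TAC libraries 1 and 2. The third TAC library carries the number 4 in the deposited table, and its total was not used. The tissue labels fitted their markers: the cardiac myosin Myh6 had 642687 ± 36539 normalized counts in heart and 109 ± 6.50 in quadriceps (SD, n = 3), and the fast myosin Myh4 had 28.8 ± 6.95 and 1059570 ± 339813. Normalized counts were scaled by TMM, a method that centres most genes on no change, within each table, so their levels cannot be compared between the tables. Scaling by library totals instead moved the median log2 fold change of all features from 0.029 to -0.63 in TAC against sham and from -0.056 to -0.81 in quadriceps against heart. Fold changes under that scaling are therefore given beside each gene with a printed fold change whose direction or call changed with it. Markers named only as shared between lists are covered by the counts of their lists. A feature was called when its adjusted p in edgeR's quasi-likelihood test was under 0.05.

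Per transcript length, heart and quadriceps ranked the 9 genes in different orders. RPKM, the reads scaled to transcript length and library total, put Ltbp4 first in sham heart at 19.9 ± 1.85 (SD, n = 3), and the lowest heart library for Ltbp4 was 17.8. Then followed Ltbp1 at 6.38 ± 0.351, Ltbp3 at 5.54 ± 0.839, Tgfbr3 at 5.47 ± 0.522, Tgfb1 at 5.30 ± 0.507, Tgfbi at 4.21 ± 0.761 and Tgfb3 at 4.02 ± 0.442 RPKM. Each of these 6 overlapped its neighbour in the order, while the libraries of Ltbp1 lay above all those of Tgfb1, Tgfbi and Tgfb3. Tgfb2 at 2.64 ± 0.364 and Ltbp2 at 0.401 ± 0.0659 RPKM stood below, without overlap.

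In sham quadriceps the ligand Tgfb3 ranked first at 5.54 ± 0.468 RPKM, above Ltbp3 at 4.72 ± 0.220 and Tgfb2 at 4.25 ± 0.160 (SD, n = 3). Lower levels were found for Tgfbi at 2.79 ± 0.219, Tgfbr3 at 2.03 ± 0.351, Ltbp1 at 1.26 ± 0.170, Ltbp4 at 1.06 ± 0.186, Tgfb1 at 0.401 ± 0.0825 and Ltbp2 at 0.0478 ± 0.0258 RPKM. Ltbp1 and Ltbp4 were the only neighbours in this order whose libraries overlapped. Ltbp4, the first of the set in heart, was thus near the bottom of the order in quadriceps.

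**Figure D1:**
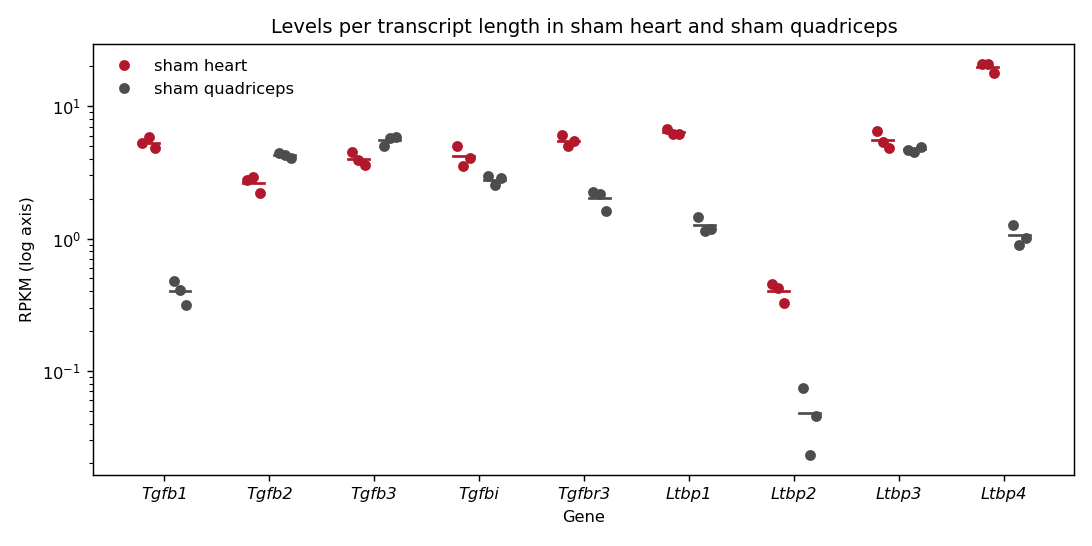
RPKM (log axis) of the 9 genes in the 3 sham heart and 3 sham quadriceps libraries, with 1 point per library and a bar at the mean. Ltbp4 falls from a mean of 19.9 in heart to 1.06 in quadriceps, while Tgfb3 stands at 4.02 in heart and 5.54 in quadriceps.

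The comparison of sham quadriceps with sham heart asks how resting skeletal muscle differs from the heart in these genes. Of the 9 genes 8 were called, 3 higher in quadriceps and 5 lower, and for each of the 8 the libraries of both tissues did not overlap. Among all 24280 transcripts tested, 32.2% were called higher and 34.4% lower, and with library totals these shares were 13.3% and 62.6%. The libraries of both tissues did not overlap for 72.6% of all tested transcripts. In bulk tissue, a smaller share of the cells that express a gene and less of its RNA per cell cannot be told apart.

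The ligands moved in opposite directions. Tgfb1, the ligand classically linked to fibrosis, had 308, 337 and 282 normalized counts in heart, against 43.7, 42.4 and 31.6 in quadriceps. All 3 quadriceps libraries lay far below all heart libraries, by 7.73-fold (log2 fold change -2.95, SE 0.16, adjusted p = 3.77e-07, edgeR). The raw counts behind the quadriceps values were 34, 29 and 16 reads, so they carry more counting error than those of the other ligands.

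Tgfb2, a ligand that depends on the co-receptor Tgfbr3 for high-affinity receptor binding, had 390, 405 and 312 normalized counts in heart and 957, 1069 and 978 in quadriceps. It was higher in every quadriceps library (log2 fold change 1.44, SE 0.12, adjusted p = 6.82e-06, edgeR), and 0.69 with library totals (adjusted p = 0.000894). Tgfb3, the third ligand, had 412, 356 and 328 normalized counts in heart and 708, 939 and 911 in quadriceps. It was 2.33-fold higher in quadriceps (log2 fold change 1.22, SE 0.14, adjusted p = 4.68e-05, edgeR), and the log2 fold change was 0.46 with library totals (adjusted p = 0.00673).

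The make-up of the ligand pool does not depend on the scaling between libraries. From counts per base, Tgfb1 made up 41.9, 45.9 and 45.3% of the ligand transcripts in heart, against 4.87, 3.88 and 3.09% in quadriceps. Tgfb2 made up 22.1, 23.0 and 20.9% in heart and 44.5, 40.9 and 39.9% in quadriceps. Tgfb3 made up 35.9, 31.1 and 33.8% in heart and 50.6, 55.2 and 57.1% in quadriceps. The ligand pool of quadriceps thus consisted of Tgfb2 and Tgfb3 almost entirely, whereas in heart Tgfb1 had the largest share in each library. With 3 libraries against 3, an exact permutation test cannot go below p = 0.1, which is what groups without overlap give.

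The latent binding proteins differed between the tissues by gene. Ltbp4, which is known to carry the latent TGF-beta complex and to support elastic fiber assembly, had 2063, 2036 and 1738 normalized counts in heart and 193, 158 and 170 in quadriceps. Its level was 11.2-fold lower in quadriceps (log2 fold change -3.48, SE 0.13, adjusted p = 2.82e-08, edgeR), the widest gap of the 9 genes. Ltbp1, the founding member of the family, had 1165, 1046 and 1046 normalized counts in heart and 384, 345 and 346 in quadriceps. It was 3.03-fold lower in quadriceps (log2 fold change -1.60, SE 0.10, adjusted p = 1.21e-06, edgeR).

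Ltbp2, the family member that does not bind latent TGF-beta and sits on microfibrils, had 80.7, 74.3 and 57.8 normalized counts in heart and 20.6, 7.30 and 13.8 in quadriceps. It was lower in quadriceps (log2 fold change -2.32, SE 0.32, adjusted p = 0.000168, edgeR), on raw counts of only 16, 5 and 7 reads. Ltbp3, which is known for its part in bone and tooth development, had 906, 736 and 669 normalized counts in heart and 1018, 1123 and 1181 in quadriceps. It was called higher in quadriceps (log2 fold change 0.52, SE 0.13, adjusted p = 0.00589, edgeR), but with library totals its log2 fold change was -0.23 (adjusted p = 0.119). Relative to the median of all features Ltbp3 stood at 0.58 with TMM and at 0.57 with library totals.

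Expressed as shares, Ltbp4 made up 60.4, 63.7 and 61.1% of the Ltbp transcripts in heart and 16.9, 13.7 and 14.1% in quadriceps. Ltbp3 made up 18.7, 16.2 and 16.6% in heart and 62.8, 68.7 and 68.8% in quadriceps. The shares of Ltbp1 overlapped, with 18.8 to 21.2% in heart and 16.5 to 19.4% in quadriceps. These shares, too, are free of the scaling between libraries. Over the 21 ways of choosing 1 transcript per gene, Ltbp4 stayed between 60.0 and 67.7% in heart, and Ltbp3 between 59.2 and 70.3% in quadriceps. The summed RPKM of the Ltbp genes was 2.77, 2.60 and 2.72 times that of the ligands in heart and 0.759, 0.629 and 0.704 times in quadriceps. This sum includes Ltbp2, which made up 1.12 to 1.31% of it in heart and 0.351 to 0.996% in quadriceps. Per ligand transcript, quadriceps therefore held fewer Ltbp transcripts than heart in every library.

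**Figure D2:**
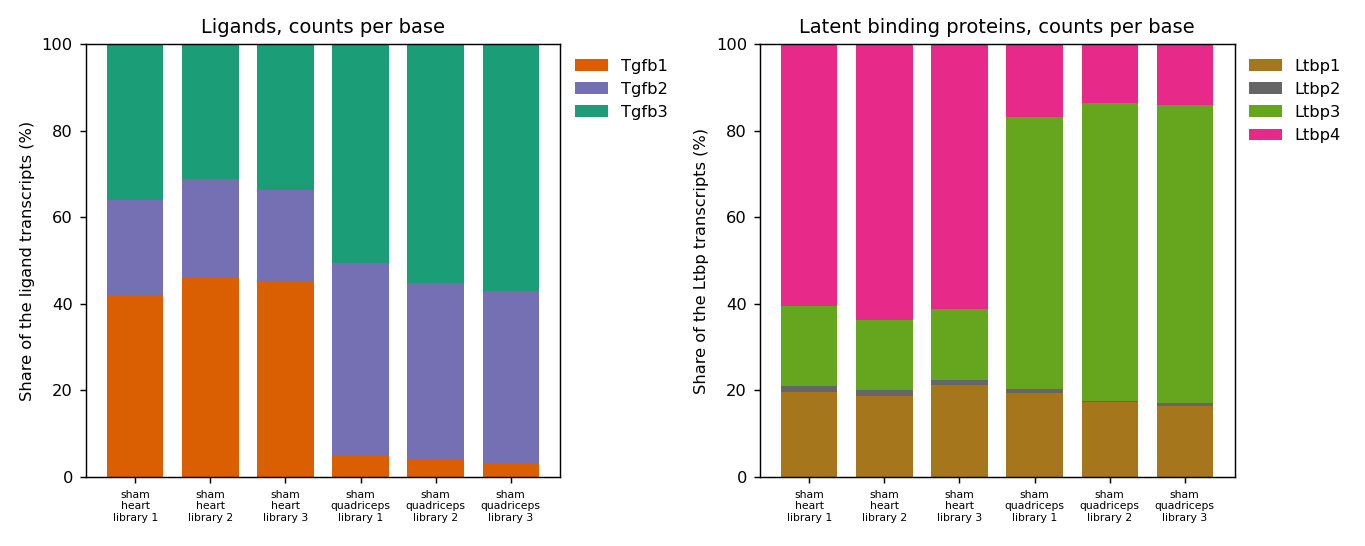
Stacked bars of the share (%) of each ligand among the ligand transcripts (left) and of each Ltbp gene among the Ltbp transcripts (right), from counts per base, with 1 bar per sham library. Tgfb1 makes up 41.9 to 45.9% of the ligand bar in heart and 3.09 to 4.87% in quadriceps, and Ltbp4 gives way to Ltbp3 between the tissues.

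The several RefSeq transcripts of Ltbp1 and Ltbp4 were counted on shared exons and are not independent. The long Ltbp1 transcript NM_019919, with 34 exons, starts just after the upstream window shown above, and NM_206958, with 30 exons, just after the downstream window. The longer transcript had 104, 96 and 88 more reads than the shorter in heart, or 6.15, 5.99 and 6.41% of its own counts. This is a net difference, as each transcript has its own start. In quadriceps the differences were 7, 4 and 4 reads, or 2.29, 1.67 and 2.23%. The share was lower in each quadriceps library, on very few reads. For Ltbp4, the short transcript NM_001310678, with 23 exons, took 62.6, 63.0 and 61.7% as many counts as the 30-exon NM_001113549 in heart and 54.9, 48.9 and 52.1% in quadriceps. All 7 Ltbp1 transcripts had log2 fold changes between -1.66 and -1.58, and all 3 of Ltbp4 between -3.48 and -3.21.

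Tgfbr3, also called betaglycan, presents TGF-beta, Tgfb2 above all, to the signaling receptors. It had 987, 800 and 881 normalized counts in heart and 573, 637 and 452 in quadriceps. It was 1.60-fold lower in quadriceps (log2 fold change -0.68, SE 0.14, adjusted p = 0.00212, edgeR). Per base, Tgfbr3 stood at 2.18, 1.70 and 2.43 times Tgfb2 in heart and at 0.515, 0.512 and 0.398 times in quadriceps, so the co-receptor exceeded this ligand in heart and fell short of it in quadriceps. Tgfbi, a secreted matrix protein induced by TGF-beta, had 363, 249 and 292 normalized counts in heart and 330, 326 and 352 in quadriceps. The tissues overlapped and it was not called (log2 fold change 0.15, 95% interval -0.13 to 0.44, adjusted p = 0.371, edgeR), whereas with library totals its log2 fold change was -0.59 (adjusted p = 0.00658).

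**Figure D3:**
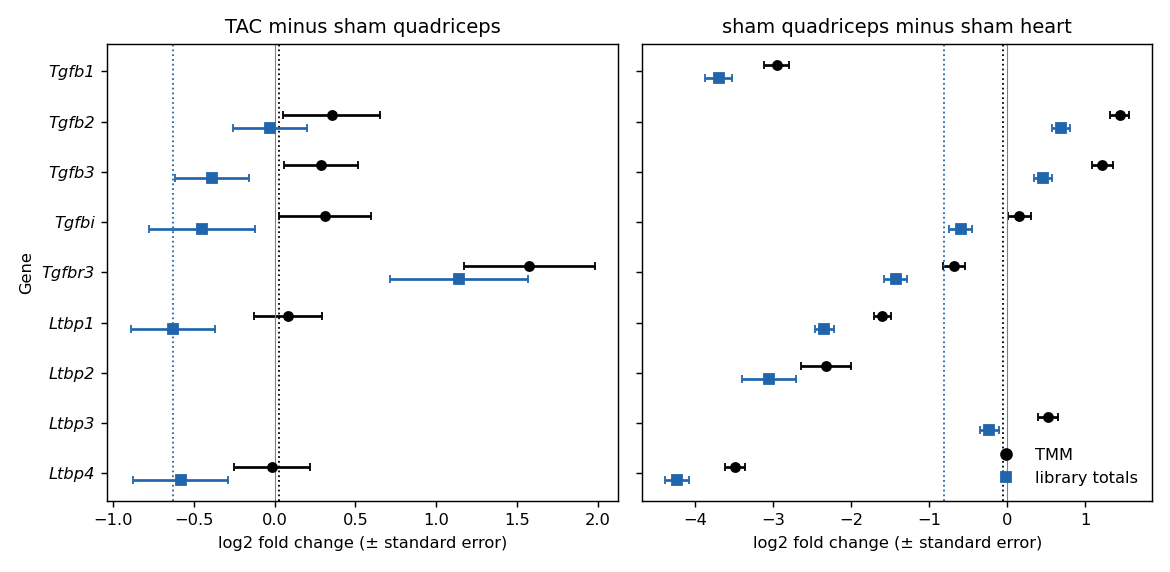
Log2 fold changes (± standard error, edgeR) of the 9 genes for TAC minus sham quadriceps (left, 6 genes listed) and sham quadriceps minus sham heart (right), with TMM (circles) and with library totals (squares). Dotted lines mark the median of all tested features in each scaling. Tgfbr3 lies right of both medians after TAC, and Ltbp3 and Tgfbi lie on opposite sides of 0 under the 2 scalings in the tissue comparison.

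Other genes of the pathway were taken from lists of known components. Over all transcripts tested, 32.2% were called higher and 34.4% lower, and 13.3% and 62.6% with library totals. Of 7 receptor and co-receptor genes, 1 was called higher in quadriceps and 5 lower, with a list median of -1.19 against -0.056 over all transcripts. With library totals 1 receptor gene was higher and 6 were lower. The type I receptor Tgfbr1 was higher (log2 fold change 1.19, adjusted p = 1.51e-05, edgeR). The endothelial co-receptor Eng (-2.48), the scavenger receptor Lrp1 (-2.09) and Nrp1 (-1.23), a co-receptor for several growth factors, were lower. Of 13 Smad and cofactor genes, 4 were called higher and 6 lower, with a list median of -0.24. The receptor-regulated Smad3 (2.62), the Smad anchor Zfyve9 (2.02) and the corepressor Tgif1 (1.48) were higher, and the inhibitors Bambi (-3.45), Smad7 (-1.38) and Smurf1 (-1.26) were lower in quadriceps. With library totals the counts were 2 higher and 10 lower, with Smad3 at 1.84, Zfyve9 at 1.26 and Tgif1, no longer called, at 0.71 (adjusted p = 0.0677).

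The next lists stand beside the same shares of all transcripts, 32.2% called higher and 34.4% lower. Of 18 tested genes for activation and anchoring of latent TGF-beta, 3 were called higher and 10 lower in quadriceps. With library totals 3 of them were higher and 13 lower. The protease Plau (log2 fold change 1.57) and the integrin subunits Itgav (1.36) and Itgb6 (1.07), which activate latent TGF-beta, were higher. The protease Htra3 (-2.64), the proprotein convertase Furin (-1.60), which cleaves the TGF-beta precursor, and the plasminogen activator Plat (-1.51) were lower. Of 16 matrix binders and microfibril genes, 1 was called higher, the proteoglycan Fmod (3.79), and 12 lower, led by the fibrillin Fbn2 (-5.08), Adamtsl2 (-4.09) and Emilin1 (-1.91). With library totals 1 matrix gene was higher and 15 were lower. Of 25 tested genes known to respond to TGF-beta, 6 were called higher, among them the matrix protein Tnc (2.75), the collagen crosslinker Lox (2.40) and the cell cycle inhibitor Cdkn2b (2.06). A further 11 were called lower, led by Ctgf (-2.00), Postn (-1.74) and Vcan (-1.64). With library totals, 3 response genes were higher and 17 lower, beside 13.3% and 62.6% of all transcripts.

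Markers of other cell types differed with the tissue, but some of them were already counted in the lists above. Col1a1, Col1a2 and Col3a1 of the fibroblast markers, Comp of the tendon markers and Acta2 and Tagln of the smooth muscle markers are also response genes. The fibroblast marker Dcn and the tendon marker Fmod are also matrix binders. All 4 endothelial markers were called lower in quadriceps, with summed normalized counts of 14052 to 14994 in heart and 4143 to 4797 in quadriceps. All 6 macrophage markers were lower, with sums of 2719 to 2878 and 1270 to 1770. Of 7 fibroblast markers 4 were lower, with sums of 21308 to 24113 and 14984 to 20909, and Tcf21, a marker of cardiac fibroblasts, was at 0 in all quadriceps libraries. Tendon markers were higher for 5 of 6, with sums of 409 to 616 and 5541 to 5783, and adipocyte markers for 5 of 5, with sums of 14.7 to 53.6 and 500 to 4007. Of 4 smooth muscle markers 1 was higher and 1 lower, with sums of 3081 to 3894 and 2248 to 3002. With library totals, where 62.6% of all transcripts were lower, all 7 fibroblast markers were lower. Of the tendon markers 4 were then higher and 1 lower, and of the smooth muscle markers none was higher and 2 were lower. Comp (log2 fold change -0.040, adjusted p = 0.908, edgeR) and Tagln (0.015, adjusted p = 0.945) lost their call. The other marker counts stayed the same. The part of these cell types in the values of the 9 genes was not tested.

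The comparison of TAC with sham quadriceps asks how the secreted-protein genes of wasting muscle change under chronic pressure overload. Tgfbr3 was the 1 gene called among the 6 of the set that the table listed, and it was higher after TAC. Of all 586 genes tested, 17.7% were called higher and 11.9% lower, and with library totals 3.41% were higher and 30.7% lower, so a count of 1 of 6 is near the background. The ligands Tgfb2 and Tgfb3, Tgfbi, Ltbp1 and Ltbp4 did not pass the test.

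Tgfbr3 had 363, 441 and 315 normalized counts after sham surgery, against 1894, 654 and 788 in TAC libraries 1, 2 and 4. The groups did not overlap with TMM, as was the case for 47.3% of all genes tested, and TAC library 1 stood well above the other two. The means were 373 ± 63.5 and 1112 ± 680 (SD, n = 3), a 2.98-fold rise (log2 fold change 1.58, SE 0.41, adjusted p = 0.0217, edgeR; exact permutation p = 0.1, two-sided). Without TAC library 1 the log2 fold change was 0.89 (adjusted p = 0.0454), and without any 1 of the sham libraries the adjusted p was between 0.0583 and 0.0934. With library totals, which were at hand for 5 of the 6 libraries, the log2 fold change was 1.14 (adjusted p = 0.0714). On that scale TAC library 2, at 2.26 RPKM, lay within the sham range of 1.62 to 2.26 RPKM, and TAC library 1 stood at 6.66 RPKM. Relative to the median of all genes Tgfbr3 stood at 1.55 with TMM and 1.77 with library totals.

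Ratios within a library gave the same order for one ligand but not for the other. Per base, Tgfbr3 stood at 0.453, 0.379 and 0.278 times Tgfb3 in sham and at 1.69, 0.499 and 0.585 times in TAC, without overlap. Against Tgfb2 the ratios were 0.515, 0.512 and 0.398 in sham and 1.89, 0.471 and 1.28 in TAC, and TAC library 2 fell within the sham range.

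The 2 genes whose pattern over the 6 quadriceps libraries was most like that of Tgfbr3 were Apod and Htra1, by the root mean square difference of centred log2 normalized counts. Apod, a lipid-binding lipocalin, differed from Tgfbr3 by 0.095. It had 987, 1204 and 953 normalized counts in sham and 4664, 1803 and 2326 in TAC (log2 fold change 1.48, SE 0.35, adjusted p = 0.0181, edgeR). As both genes were picked for their likeness to Tgfbr3 over these libraries, a high TAC library 1 is no separate observation. With library totals the log2 fold change of Apod was 0.99 (adjusted p = 0.0712). Htra1, a secreted serine protease, differed by 0.20, with 263, 392 and 268 normalized counts in sham and 1259, 446 and 477 in TAC (log2 fold change 1.24, SE 0.42, adjusted p = 0.0575, edgeR).

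Neither ligand in the TAC table passed the test. Tgfb2 had 606, 740 and 681 normalized counts in sham and 863, 1195 and 529 in TAC, so that the TAC libraries lay on both sides of the sham range. The log2 fold change was 0.35 (95% interval -0.24 to 0.94, adjusted p = 0.412, edgeR), and -0.029 with library totals. Tgfb3 had a mean of 577 ± 112 normalized counts in sham and 704 ± 68.8 in TAC (SD, n = 3), with overlap. Its log2 fold change was 0.29 (95% interval -0.16 to 0.73, adjusted p = 0.381, edgeR), and -0.39 with library totals (adjusted p = 0.210). The ratio of Tgfb2 to Tgfb3 per base was 0.880, 0.741 and 0.698 in sham and 0.897, 1.06 and 0.456 in TAC.

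Neither Ltbp gene in the TAC table passed the test. Ltbp1 had 241 ± 2.28 normalized counts in sham and 255 ± 20.3 in TAC (SD, n = 3), with a log2 fold change of 0.083 (95% interval -0.33 to 0.50, adjusted p = 0.797, edgeR). Ltbp4 had 116 ± 6.58 and 115 ± 20.3 normalized counts, with a log2 fold change of -0.019 (95% interval -0.48 to 0.44, adjusted p = 0.970, edgeR). With library totals both stood lower, at -0.63 (adjusted p = 0.0902) and -0.58 (adjusted p = 0.148), which is close to the median of all genes on that scale. The ratio of Ltbp1 to Ltbp4 per base was 1.15, 1.26 and 1.17 in sham, 1.31, 1.02 and 1.60 in TAC, and 0.325, 0.296 and 0.346 in sham heart. Tgfbi had 226 ± 17.9 and 281 ± 86.5 normalized counts in sham and TAC, with a log2 fold change of 0.31 (adjusted p = 0.447, edgeR) and -0.45 with library totals. The intervals hold changes in both directions, so these tests do not show that the levels were alike.

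**Figure D4:**
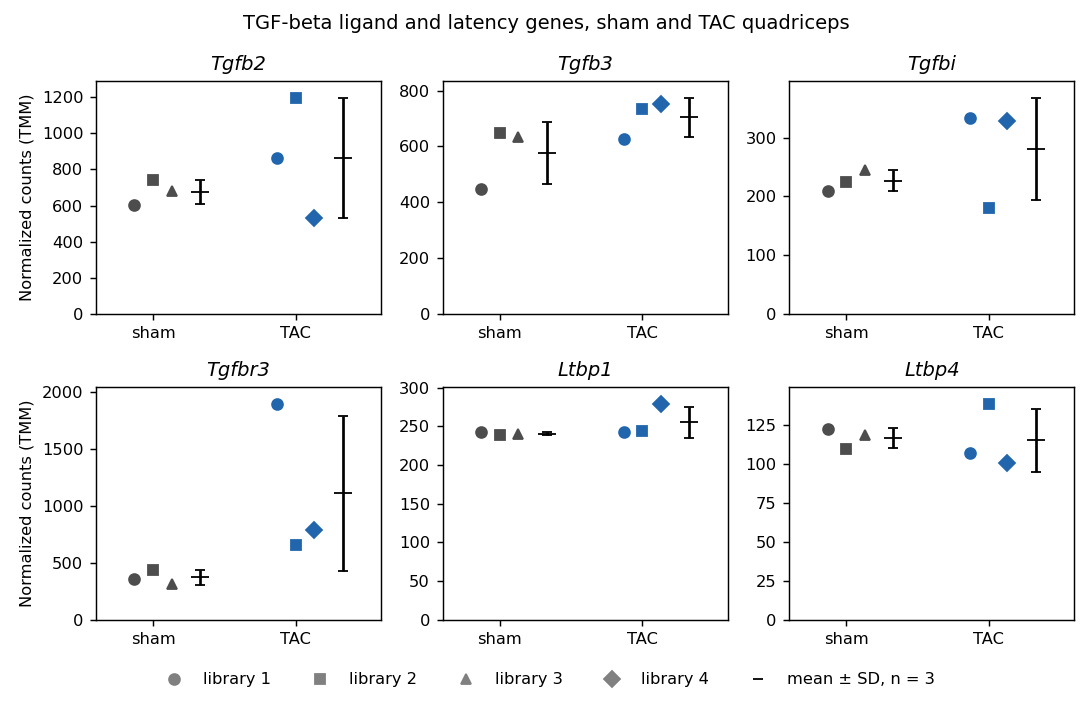
Normalized counts (TMM) of the 6 genes in the TAC table, with 1 symbol per library and the mean ± SD of the 3 libraries beside each group. For Tgfbr3 the TAC libraries at 654, 788 and 1894 lie above the sham libraries at 315 to 441, and for the other 5 genes the groups overlap.

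Falls were counted among the matrix genes around the latent complex and the response genes. Of all genes tested, 17.7% were called higher and 11.9% lower, and 3.41% and 30.7% with library totals. Of 11 tested matrix binders and microfibril genes, none was called higher and 5 were called lower after TAC, with a median log2 fold change of -0.86 against 0.029 over all genes. The largest falls were those of the microfibril protein Mfap4 (log2 fold change -2.72, adjusted p = 0.00288), the proteoglycan Bgn (-2.13, adjusted p = 0.00664) and the fibrillin Fbn1, on which latent complexes are tethered (-2.05, adjusted p = 0.00449, edgeR). Of 13 tested genes known to respond to TGF-beta, 8 were called lower and none higher, with a median of -1.42. The collagens Col3a1 (log2 fold change -3.95) and Col1a1 (-3.31) fell (adjusted p = 0.000557 for both, edgeR), as did the matricellular Postn (-3.23, adjusted p = 0.00821). Of 8 tested genes for activation and anchoring none was called with TMM, and 5 were lower with library totals. The 1 receptor gene listed, Eng, was not called either (log2 fold change 0.015, adjusted p = 0.971, edgeR, and -0.56 with library totals), and no gene of the Smad list was among those in the table.

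**Figure D5:**
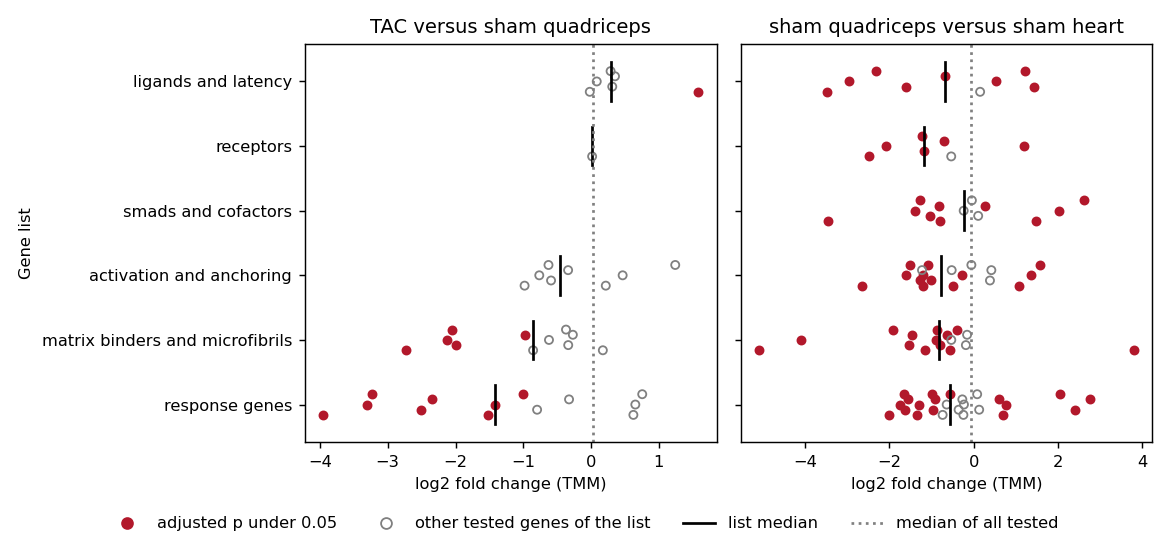
Log2 fold changes (TMM, edgeR) of the tested genes of each pathway list in TAC versus sham quadriceps (left) and sham quadriceps versus sham heart (right). Filled points passed an adjusted p of 0.05, black bars mark list medians and the dotted line the median of all tested features. After TAC the median is -1.42 for the response genes, -0.86 for the matrix binders and 0.30 for the 6 ligand and latency genes. With library totals the last is -0.42, and differences between lists were not tested.

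Markers of other cell types moved with TAC as well, but some of them were already counted in the lists above. The fibroblast markers Col1a1, Col1a2 and Col3a1 and the tendon marker Comp are also response genes. The fibroblast marker Dcn and the tendon marker Fmod are also matrix binders. Of 5 listed fibroblast markers 4 were called lower, with summed normalized counts of 9959 to 12749 in sham and 6086 to 9179 in TAC, while the fibroblast proteoglycan Dcn was not called (log2 fold change 0.17, adjusted p = 0.601, edgeR, and -0.62 with library totals). Of 4 macrophage markers 3 were lower, with sums of 727 to 978 and 347 to 426. Of 4 tendon markers 2 were lower, with sums of 3182 to 3767 and 1513 to 1685. With library totals, where 30.7% of all genes were lower, all 4 macrophage and all 4 tendon markers were lower, Fmod and Comp included. Both listed endothelial markers were called higher, with sums of 917 to 1048 and 1504 to 1589, but their log2 fold changes with library totals were -0.021 for Pecam1 and 0.092 for Vwf. None of 3 adipocyte markers was called, with sums of 315 to 2302 in sham and 415 to 2860 in TAC. The 1 listed muscle fiber marker, Ckm, was not called (log2 fold change 0.45, adjusted p = 0.278, edgeR, and -0.26 with library totals). No listed marker of these types was at 0 throughout a group, and their part in the rise of Tgfbr3 was not tested.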

How the data were processed

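RNA was sequenced from 9 libraries, 3 per group. Single-end reads went through Trim Galore and STAR (mm10), and the authors then used Rsubread to make the deposited raw counts, given for each RefSeq transcript. A second set of columns holds RPKM as computed by the authors, that is, counts scaled to transcript length and to the library's summed counts. Their own fold changes and p-values are in both tables and were not used. The TAC table lists a selected 587 genes, and in 111 of its rows the counts and the authors' statistics refer to different transcripts. One TAC column is numbered 4, where the labels run to 3. Its counts were taken as a TAC replicate, and its RPKM column, the 1 per-library column left unused, was not, so library totals and RPKM in the TAC table cover 5 libraries.

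A feature had to exceed 5 counts in 2 or more libraries. Tests used edgeR 4.0.16 in R 4.3.3 (quasi-likelihood, TMM, Benjamini-Hochberg over the whole table, 2 groups per fit, no block). This left 586 genes and 24280 transcripts. A gene with several transcripts is given by the one in the TAC table, otherwise by the one with the highest summed count. The genes and lists were chosen with earlier results of these data known. Named are the 9 genes, at most 3 called genes of each list per direction and comparison by size of change, markers that check a label, and the 2 nearest patterns to a gene called after TAC. Markers that also stand in another list are named too. Dcn, Ckm, Pecam1, Vwf, Eng after TAC and Tcf21 were named after their values were seen. The procedure was tested on simulated data. Replicate libraries differed by at least 7.03 in chi-square per degree of freedom, so none was a duplicate. The p-values measure the spread between these libraries. Alternatives were DESeq2 1.42.0 and its size factors, library totals, and limma 3.58.1 on log2-transformed RPKM (pseudocount 1, or 0.1). Further ones were other filters, 1 transcript per gene, a replicate block and leaving out each library. The study's thresholds for TAC against sham were also applied, to both comparisons. Positions are those of GENCODE vM21. The extraction protocol in the labels names quadriceps for every sample, the heart libraries included.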

Additional observations from a re-analysis of the deposited data

How the results depend on the processing

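Of 239 fold changes of the 9 genes recomputed under alternatives, 210 kept their direction and their side of the threshold, 8 kept the direction but lost the call and 21 reversed. The count of genes of the set called after TAC, 1, was 0 with library totals, with limma on log2(RPKM + 1) and on log2(RPKM + 0.1), and 0 to 1 when each library was left out. For Tgfbr3 after TAC the adjusted p ranged from 0.00124 (DESeq2) to 0.126 (limma), and the log2 fold change from 0.73 to 1.85. Without a single library it ran from 0.89 to 1.85. The reversals after TAC came with library totals, log2(RPKM + 1) and log2(RPKM + 0.1) in this order: Tgfb2 at -0.029, -0.034 and -0.044, Tgfb3 at -0.39, -0.32 and -0.38, Tgfbi at -0.45, -0.35 and -0.49, and Ltbp1 at -0.63, -0.31 and -0.57. Ltbp1 also stood at -0.071 without TAC library 4, and at up to 0.11 without another library. In quadriceps against heart, Tgfbi stood at -0.59, -0.45 and -0.56 and Ltbp3 at -0.23, -0.19 and -0.22. None of these genes but Ltbp3 was called with TMM. TMM was fitted on the listed genes alone and centres most of them on no change. Their median log2 fold change after TAC was 0.029 with TMM and -0.63 with library totals. The listed genes made up 2.40 and 2.65% of the totals of TAC libraries 1 and 2 and 2.81 to 3.05% of those of sham. The cause of the difference between the scalings was not tested. Ltbp3 and Tgfbr3 missed a log2 fold change of 1 between the tissues, the threshold the study set for TAC against sham. For higher expression in quadriceps than in heart the study asked for a log2 fold change above 2. Tgfb2 at 1.44 and Tgfb3 at 1.22 fell short of that as well. The number of called genes of the set between the tissues was 8, and 6 to 8 over all alternatives.

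Over all features, the 104 genes called higher after TAC became 20 with library totals, 16 with either limma setting, 67 by the study's thresholds and 25 to 113 without 1 library. The 70 called lower became 180, 192 (pseudocount 1) and 198 (pseudocount 0.1), and 35 to 102 without 1 library. Between the tissues, 7828 higher and 8354 lower became 3241 and 15203 with library totals, 3194 and 15322 or 3218 and 15365 with limma, 3914 and 5096 by thresholds of 1 and p, and 4744 and 5059 with 1 transcript per gene, which tests fewer features. Same-numbered libraries did not deviate together (r = 0.079 and -0.18 for TAC and sham, -0.036 to 0.064 for the tissues), so the numbers were not used as a pairing, and whether they mark the same animals in heart and quadriceps is not known. With the replicate block, 8 genes of the set were called between the tissues, and Tgfbr3 after TAC stood at 1.48 (adjusted p = 0.0104) on the 4 libraries numbered 1 and 2. There 56 genes were called higher and 62 lower, and 49 and 39 on the same libraries without the replicate block. Ltbp4 stood at 0.071 with the block and 0.081 without it on these libraries. Ltbp2 has no value under the filter of 10 counts in every library. Low counts limit Ltbp2, Tgfb1 and the upstream Ltbp1 form in quadriceps.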
